A study of Mus musculus with 18 samples.

Results

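Own-strand peaks of 9 complement genes were followed through 18 peak lists from mouse liver RNA. The genes are *C3*, *C4b*, *Hc*, *Cfb*, *Cfi*, *C8a*, *C8b*, *C9* and *Masp1*, taken by name from GENCODE M21 (GRCm38), which holds 55450 genes. The lists come from livers of mice 8 to 9 days old and cover 2 genotypes, 3 RNA fractions and 3 replicates. Editing-deficient mice (Adar-/-; Mavs-/-) lack ADAR1, the enzyme that turns adenosine into inosine in double-stranded RNA, and also MAVS, which relays the MDA5 signal. The other mice (Mavs-/-) lack MAVS only, although some of their labels read wild-type. The missing adaptor is therefore common to every sample, and no mouse with intact *Mavs* was compared. The input is undigested total RNA, the RNase-only fraction was digested with RNases A and T1, and the MDA5-protected fraction was digested after incubation with recombinant MDA5 without its CARD domains. The study describes biological triplicates, and whether different fractions with the same number share an animal is not stated.

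Complement is a set of plasma proteins, made largely by hepatocytes, that cleave and bind each other on foreign surfaces. The classical and lectin pathways start from recognition proteins and their proteases, the alternative pathway uses factor B, and all meet at C3. Cleavage of C5 then begins the assembly of C6, C7, C8 and C9 into a pore in the target membrane.

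The value used for a gene is the percent of its exonic bases, over all annotated exons, that lie in peaks on its own strand. Peaks were called library by library, so the value says where signal passed the caller's limits and is not a read count. The lists hold no read counts, and the depth of the libraries is unknown from them. The input libraries held 4326 to 8948 peaks, with 6991 to 8948 in editing-deficient and 4326 to 6625 in Mavs-/- livers, and the digested libraries held 1180 to 6094. On all protein-coding genes, 97.4 to 98.1% of the exonic bases in input peaks lay on the gene's own strand, and the 9 genes had no input peak on the opposite strand. No library had a peak on *Mavs*, while *Adar* had an input peak in 2 of 3 editing-deficient libraries and in 0 of 3 Mavs-/- libraries. Such peaks cannot tell an intact transcript from one without the deleted part and are no check of the genotypes. Hepatocyte markers (*Alb*, *Apoa1*, *Ttr*, *Serpina1a*, *Cps1*) had input peaks in all 6 input libraries.

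In input RNA the 9 genes spanned the whole range from complete coverage to none. *C3*, the protein on which the pathways converge, had 98.6, 98.8 and 98.8% of its exonic bases in peaks in editing-deficient livers and 98.6, 98.7 and 98.9% in Mavs-/- livers. By the mean over all input libraries *C4b* and *Cfb* followed, then *Cfi*, *Hc*, *C8a*, *Masp1* and *C8b*. In Mavs-/- livers *Cfb* was ahead of *C4b*. *C9* was without a peak in all 18 libraries. The other 8 genes could be compared in input.

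**Figure D1:**
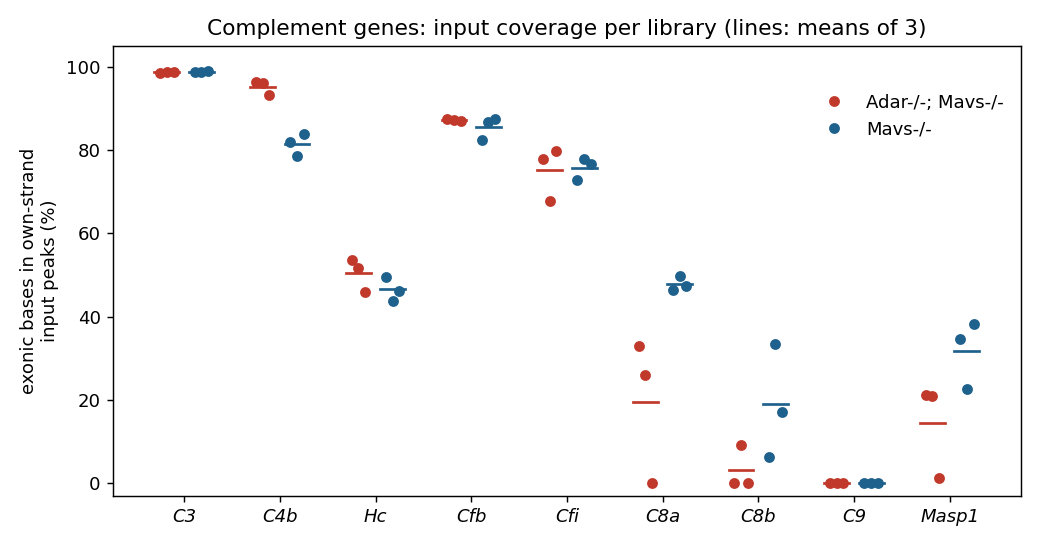
Percent of exonic bases in own-strand input peaks (vertical axis) for each of the 9 genes; each point is 1 library, lines are means of 3 libraries, and colours mark the genotypes. *C3* sits at 98.6 to 98.9% in every library, *C4b* is higher in the editing-deficient libraries, and *C8a* and *Masp1* are lower there.

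The area of a Genrich peak, its summed significance, was also divided by exonic length and ranked within each library. On this scale *C3* stood at rank 6, 10 and 7 among 2441, 3066 and 3056 protein-coding genes with an exonic input peak in the editing-deficient livers. In Mavs-/- livers its rank was 14, 9 and 8 among 1785, 1463 and 2442 genes. *Cfb* ranked between 56 and 84, *C4b* between 74 and 158, *Cfi* between 102 and 127, and *Hc* between 211 and 337. *C8a* ranked between 378 and 1065 in the 5 libraries where it had a peak. *C3* was ahead of the other members in each library.

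*C3* (chromosome 17, 57203970–57228136, minus strand, ENSMUSG00000024164.15) has 41 exons in its longest coding transcript. An exon is called covered here where peaks hold at least 50% of its bases. All 41 exons were covered in all 6 input libraries, down to the shortest of 52 bases. The coding sequence was inside peaks in full in every library, and the 3′ UTR to 95.7%. Exon 1, which carries the 5′ UTR, was the least complete, with 65.2 to 70.2% of its bases in peaks. The 30 to 32 peaks of the gene also ran across short introns. Of its 40 introns, 9 lay wholly within peaks in all 6 libraries, with a median length of 94 bases, and 27 were never wholly covered, with a median of 539.

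**Figure D2:**
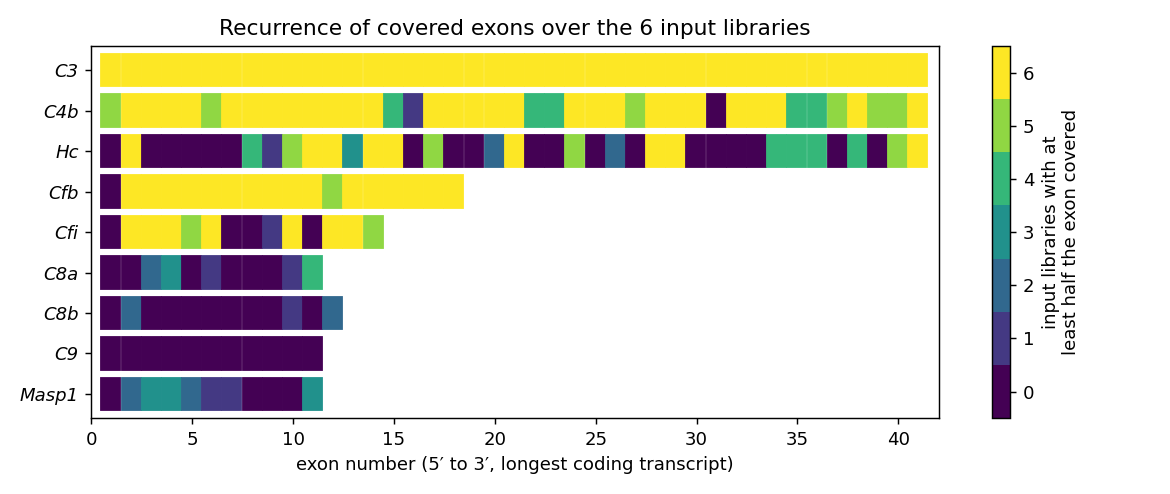
Exons of the longest coding transcript of each gene from 5′ to 3′ (horizontal axis), coloured by the number of input libraries, from 0 to 6, in which at least 50% of the exon lay in own-strand peaks. *C3* is covered from end to end, *Hc* has 9 exons covered in 6 libraries, 13 in some and 19 in 0, and *C9* is empty.

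*C4b* (chromosome 17, 34728380–34743882, minus strand, ENSMUSG00000073418.4) encodes C4, which the classical and lectin pathways cleave to build the C3 convertase. It had 96.3, 96.1 and 93.1% of its exonic bases in input peaks in editing-deficient livers and 81.9, 78.5 and 83.8% in Mavs-/- livers. Every editing-deficient library was above every Mavs-/- library. Editing-deficient livers averaged 95.2 ± 1.78% (SD, n = 3) and Mavs-/- livers 81.4 ± 2.72% (SD, n = 3), a difference of 13.8 percentage points (two-sided exact permutation p = 0.10, the smallest that 3 libraries against 3 allow). After Benjamini-Hochberg adjustment over the 5274 genes tested the exact p was 0.513, and no gene could pass 0.05. Groups that did not overlap, with the editing-deficient livers higher, were found for 16.5% of all genes tested, and the median difference over all genes was 3.42 points.

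Over the exons of the longest coding transcript alone (5379 of the 5695 exonic bases) the difference was 10.3 points, so part of it lay in bases of other annotated transcripts. Within the longest coding transcript, exons 15, 22, 35 and 36 were covered in 3 of 3 editing-deficient libraries and only in replicate 3 of the Mavs-/- livers, as was exon 23. Exon 27 was missing only from Mavs-/- replicate 1. Exon 39 and exon 40 were missing only from Mavs-/- replicate 2, and exons 1, 6 and 37 only from Mavs-/- replicate 3. Of the 41 exons, 28 were covered in all 6 libraries. Exon 16, of 75 bases, was covered in 1 library (editing-deficient replicate 2), and exon 31, of 60 bases, in none. No exon was covered in every editing-deficient library and in no Mavs-/- library.

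*C4a* (chromosome 17, 34809092–34823464, minus strand, ENSMUSG00000015451.16) is the near-identical neighbour of *C4b*, and reads that match both copies may have been placed on either, so the values of both genes are uncertain to that extent. Aligned exon by exon, the longest transcripts of the copies differed at 210 of 5367 aligned bases (96.1% identity). *C4a* had 9.09, 8.89 and 12.2% of its exonic bases in input peaks in editing-deficient livers and 4.80, 2.85 and 4.56% in Mavs-/- livers. These groups did not overlap either (means 10.1 ± 1.87% and 4.07 ± 1.06%, SD, n = 3; exact permutation p = 0.10). Its peaks lay on 6 of the 41 exons of its longest transcript, and on the counterpart of *C4b* exon 17 in all 6 libraries. This pair, with 1 mismatch in 195 bases, is printed beside the exon 21 pair, with 22 mismatches in 204 bases, where *C4b* was covered in 6 libraries and *C4a* in none. Capitals mark the bases that differ between the copies, and the sequences, from the GENCODE M21 transcripts (GRCm38, minus strand), read in the sense of the mRNA.
C4b exon 17 (chr17:34736447-34736641): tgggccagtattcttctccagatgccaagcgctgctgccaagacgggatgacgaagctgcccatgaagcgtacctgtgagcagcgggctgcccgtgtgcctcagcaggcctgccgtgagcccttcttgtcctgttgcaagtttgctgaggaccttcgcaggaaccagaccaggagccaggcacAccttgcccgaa
C4a counterpart (chr17:34817094-34817288): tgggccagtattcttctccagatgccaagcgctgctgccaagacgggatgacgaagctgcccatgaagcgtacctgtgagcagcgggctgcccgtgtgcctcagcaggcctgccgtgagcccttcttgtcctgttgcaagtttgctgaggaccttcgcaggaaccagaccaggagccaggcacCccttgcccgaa
C4b exon 21 (chr17:34735404-34735607): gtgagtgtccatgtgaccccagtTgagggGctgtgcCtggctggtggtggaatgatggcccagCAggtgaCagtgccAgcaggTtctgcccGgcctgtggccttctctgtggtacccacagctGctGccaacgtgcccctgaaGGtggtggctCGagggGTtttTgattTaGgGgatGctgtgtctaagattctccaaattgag
C4a counterpart (chr17:34816060-34816263): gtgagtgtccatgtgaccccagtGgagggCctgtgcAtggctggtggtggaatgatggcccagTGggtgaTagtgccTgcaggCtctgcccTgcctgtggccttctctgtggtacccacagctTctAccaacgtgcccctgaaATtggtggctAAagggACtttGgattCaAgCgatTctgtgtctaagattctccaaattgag
C4b exon 31 (chr17:34732170-34732229), which no input library covered and which has no mismatch to *C4a*: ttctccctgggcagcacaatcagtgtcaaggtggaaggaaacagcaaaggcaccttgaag

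The exons on which *C4a* had a peak in any library had a median identity of 98.9% with *C4b*, and the others 97.0%. Its counterparts of *C4b* exons 4, 6, 7, 8, 31 and 35 had 0 mismatches and no peak. They were also short, with 60 to 106 bases, while the exons with a *C4a* peak had 90 to 195. Longer exons of high identity were without a *C4a* peak too. These included the counterparts of exon 3 (202 bases, 99.0% identity), exon 9 (133 bases, 99.2%) and exon 15 (127 bases, 99.2%). The part of exon length was not tested. How the reads of these exons were shared between the copies was not tested.

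*Cfb* (chromosome 17, 34856374–34862518, minus strand, ENSMUSG00000090231.10) encodes factor B, the protease component of the alternative pathway convertase. Its covered share was 87.4, 87.3 and 86.9% in editing-deficient livers and 82.5, 86.8 and 87.5% in Mavs-/- livers, and the groups overlapped (difference 1.59 points, exact permutation p = 0.60). Of its 18 exons, 16 were covered in all 6 libraries. Exon 12 was missing in Mavs-/- replicate 1. Exon 1, of 463 bases, had 22.2 to 27.0% of its bases in peaks, and the annotated 5′ UTR 10.4 to 15.9%. The annotation also holds *Gm20547*, a gene on the same strand that shares 2246 exonic bases with *Cfb* and 1656 with *C2*, so peaks on those bases cannot be assigned to 1 of them. Its own covered share, which includes those bases, was 54.5 to 63.5%.

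*Cfi* (chromosome 3, 129835884–129875332, plus strand, ENSMUSG00000058952.12) encodes factor I, the protease that inactivates C3b and C4b. It had 77.7, 67.8 and 79.8% of its exonic bases in input peaks in editing-deficient livers and 72.7, 77.8 and 76.8% in Mavs-/- livers. The groups overlapped (difference -0.66 points, exact permutation p = 0.90). Of its 14 exons, 7 were covered in all 6 libraries and 4 in none. The exons never covered were exon 1, exons 7 and 8 of 27 and 21 bases, and exon 11. Exon 10 and exon 11 have the same length, 104 bases, and lie next to each other, yet the former was covered in 6 of 6 libraries and the latter in 0 of 6. Their sequences are printed because length does not separate them. The GC content is 45.2% in exon 10 and 51.9% in exon 11.
Cfi exon 10 (chr3:129868207-129868310): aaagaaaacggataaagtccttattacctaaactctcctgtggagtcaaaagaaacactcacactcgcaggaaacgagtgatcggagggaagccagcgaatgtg
Cfi exon 11 (chr3:129868481-129868584): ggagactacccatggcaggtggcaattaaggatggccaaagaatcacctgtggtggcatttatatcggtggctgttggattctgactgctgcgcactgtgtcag

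*Hc* (chromosome 2, 34983331–35061438, minus strand, ENSMUSG00000026874.10) encodes complement C5, whose cleavage begins the terminal pathway. Its covered share was 53.5, 51.7 and 45.9% in editing-deficient livers and 49.5, 43.8 and 46.2% in Mavs-/- livers, with overlapping groups (difference 3.86 points, exact permutation p = 0.30). Like *C3* and *C4b* it has 41 exons in its longest coding transcript, but 9 were covered in all 6 libraries, 13 in some and 19 in none. The 9 exons covered throughout had a median length of 193 bases and the 19 never covered a median of 84. No exon of *Hc* up to 100 bases was covered in all 6 libraries, and 16 of these 18 were covered in none. Among the exceptions to length, exon 3 (163 bases) and exon 30 (153 bases) had no covered base in any library. Exon 38 (90 bases) and exon 35 (75 bases) were covered in 4 libraries each.

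**Figure D3:**
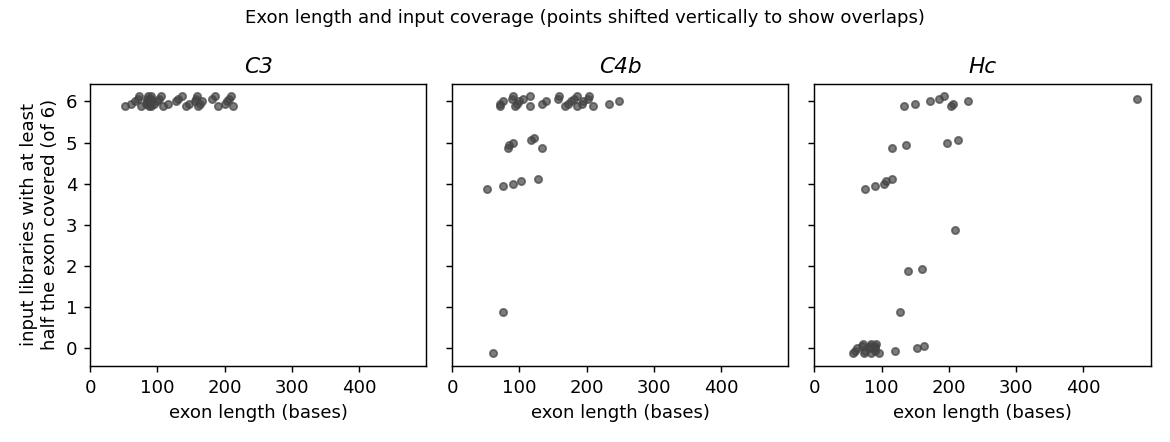
Exon length in bases (horizontal axis) against the number of input libraries, of 6, in which at least 50% of the exon lay in own-strand peaks; each point is 1 exon, and points are shifted slightly up or down where they would overlap. In *Hc* 16 of 18 exons up to 100 bases lie at 0, in *C4b* 2 exons lie below 4 libraries, and in *C3* every exon lies at 6.

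Coverage rose with exon length over all genes as well. Among protein-coding genes with exonic input peaks in all 6 libraries, 5.71% of 1190 exons up to 75 bases were covered in all 6, against 9.51% of 1294 exons of 76 to 100 bases, 16.3% of 3019 above 100 and up to 150, 24.9% of 1905 up to 200 and 32.4% of 2466 above that. In *C4b* the count was 2 of 6 exons up to 75 bases, 6 of 10 of 76 to 100, 5 of 10 above 100 and up to 150 and 15 of 15 above 150. A peak had to reach an area of 500, which a short stretch reaches only at greater height, and the reads of 75 bases were aligned with NextGenMap to the genome. The part of either in these values was not tested.

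*C8a* (chromosome 4, 104815679–104876398, minus strand, ENSMUSG00000035031.15), which encodes the alpha chain of C8, had 32.9, 25.9 and 0% of its exonic bases in input peaks in editing-deficient livers and 46.4, 49.8 and 47.4% in Mavs-/- livers. Every Mavs-/- library was above every editing-deficient library. The means were 19.6 ± 17.3% and 47.9 ± 1.78% (SD, n = 3), a difference of -28.3 percentage points (exact permutation p = 0.10, adjusted exact p = 0.513 over 5274 genes). Across all genes 3.01% had groups that did not overlap in this direction. Most of the covered bases lay in the last exon of 1978 bases, which holds the 3′ UTR. That exon had 60.5, 47.6 and 0% of its bases in peaks in editing-deficient livers and 61.5, 76.8 and 67.9% in Mavs-/- livers. Exon 4 was covered in all 3 Mavs-/- libraries and in no editing-deficient library, and exon 3 in Mavs-/- replicates 1 and 2. Without editing-deficient replicate 3, where the gene had no peak, the difference was -18.5 points.

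*C8b* (chromosome 4, 104766317–104804548, plus strand, ENSMUSG00000029656.13) encodes the beta chain of C8 and lies beside *C8a* on the opposite strand. It had a peak in 1 of 3 editing-deficient libraries (0, 9.27 and 0%) and in 3 of 3 Mavs-/- libraries (6.17, 33.4 and 17.2%). The groups overlapped (difference -15.8 points, exact permutation p = 0.20). Of its 12 exons, 9 were never covered, and peaks fell on exon 2, exon 10 and the last exon. By the rank of area per exonic base, an alternative chosen after the data were seen, the *C8b* groups did not overlap, and neither did those of *C4b*, *C8a* and *Masp1*. On that scale 11.6% of 4331 genes were higher and 14.8% lower in the editing-deficient livers without overlap.

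*C9* (chromosome 15, 6445327–6498751, plus strand, ENSMUSG00000022149.17), whose product polymerises to form the wall of the pore, was without a peak in every input, RNase-only and MDA5-protected library. None of its 11 exons held a covered base. Since the lists hold no read counts, this says only that no signal passed the caller's limits.

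*Masp1* (chromosome 16, 23449417–23520815, minus strand, ENSMUSG00000022887.9) encodes lectin pathway proteins, among them proteases, that differ by the choice of the last exons. Its covered share was 21.3, 21.0 and 1.23% in editing-deficient livers and 34.7, 22.5 and 38.1% in Mavs-/- livers. Every Mavs-/- library was above every editing-deficient library, but editing-deficient replicate 1 and Mavs-/- replicate 2 lay close together. The means were 14.5 ± 11.5% and 31.8 ± 8.20% (SD, n = 3), a difference of -17.3 points (exact permutation p = 0.10, adjusted exact p = 0.513). Without editing-deficient replicate 3 the difference was -10.7 points. With the minimum area raised to 1000 the *Masp1* groups overlapped (difference -5.58 points), and over the longest coding transcript alone the difference was -28.7 points.

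Both long last exons of *Masp1* held input peaks. That of the 11-exon transcript ENSMUST00000229619.1 (23468363–23470730, 2368 bases, 881 of them coding) had 59.6, 35.5 and 0% of its bases in peaks in editing-deficient livers and 60.9, 41.9 and 66.6% in Mavs-/- livers. That of the 16-exon transcript ENSMUST00000089883.6 (23449417–23452572, 3156 bases, 188 of them coding) had 21.6, 30.9 and 0%, and 56.9, 14.9 and 37.1%. The genotypes overlapped at both exons, and neither exon had a covered base in editing-deficient replicate 3. The coding transcript ENSMUST00000230040.1 has a last exon of its own of 832 bases, which had no covered base in any input library. The 9 exons that the 11-exon and 16-exon transcripts share had 0, 9.06 and 9.22% of their bases in peaks in editing-deficient livers and 13.6, 57.4 and 62.1% in Mavs-/- livers.

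**Figure D4:**
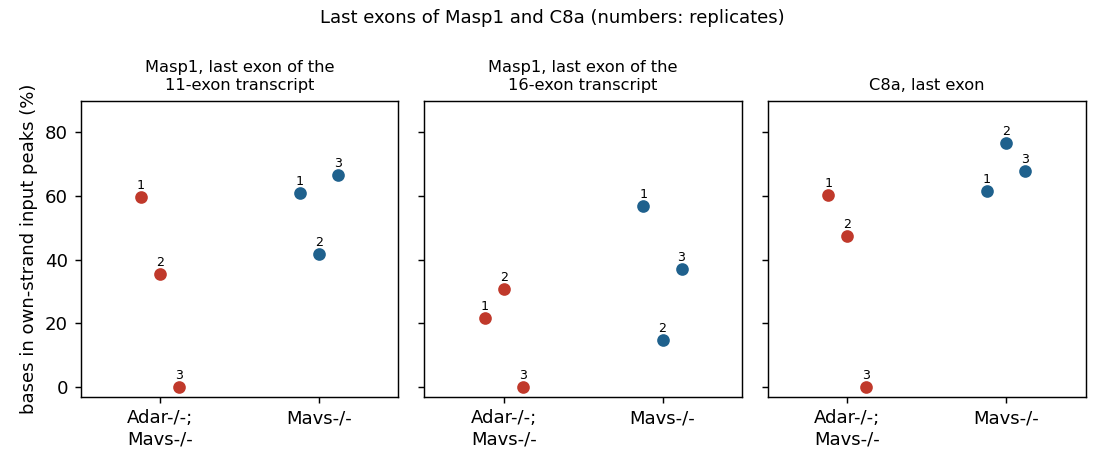
Percent of bases in own-strand input peaks (vertical axis) for both long last exons of *Masp1* and the last exon of *C8a*; each point is 1 library, numbered by replicate, with the genotypes side by side. Editing-deficient replicate 3 is at 0% in all 3 panels, and the Mavs-/- libraries lie between 14.9 and 76.8%.

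Of the 8 genes with input peaks, then, 1 was higher in the editing-deficient livers without overlap (*C4b*), 2 were lower (*C8a* and *Masp1*), and 5 had overlapping groups. The backgrounds for these directions were 16.5 and 3.01%. More peaks had been called in the editing-deficient input libraries, so the lists were also reduced to the 4326 peaks with the largest areas in each library. The same 3 genes then had groups that did not overlap, *C4b* at 96.3, 89.4 and 88.8% against 79.5, 78.5 and 71.5%, *C8a* at 32.9, 25.9 and 0% against 41.5, 49.8 and 41.0%, and *Masp1* at 14.4, 8.55 and 0% against 34.7, 22.5 and 29.6%. With equal numbers, 10.7% of 3591 genes were higher and 6.71% lower in the editing-deficient livers. Of 20 marker genes of liver and other cells, 15 of which had an input peak, 3 were higher in the editing-deficient livers without overlap and 2 lower, beside the backgrounds of 16.5 and 3.01%. Those higher were *Cps1*, a hepatocyte marker, and the macrophage markers *Cd5l* and *Marco*, and those lower the erythroid markers *Hba-a1* and *Alas2*. The summed covered percent of the 5 hepatocyte markers ranged from 373 to 394 in editing-deficient and from 390.2 to 409 in Mavs-/- livers. That of the 3 erythroid markers ranged from 124 to 163 in editing-deficient and from 175 to 203 in Mavs-/- livers, and that of the 4 macrophage and Kupffer cell markers from 206 to 252 and from 178 to 211. Both B cell and both cholangiocyte markers, and *Pecam1*, had no input peak. The part of cell composition in the complement values was not tested, and in bulk RNA fewer cells of a type and less RNA per cell cannot be told apart.

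In the digested libraries none of the 9 genes had a peak on an exon, with or without MDA5. This held for 12 of 12 libraries and for the mRNAs most completely covered in input. Of the 6 genes with exonic input peaks in all 6 input libraries (*C3*, *C4b*, *Hc*, *Cfb*, *Cfi*, *Masp1*), 0 had an exonic RNase-only peak and 0 an exonic MDA5-protected peak. Among all 1319 genes of that kind, 29.6% had an exonic RNase-only peak in at least 1 of 6 libraries and 5.31% an exonic MDA5-protected peak. With no exonic base covered, neither digested fraction could be tested between genotypes, and MDA5-protected could not be tested against RNase-only for these genes. The digested peaks had been called against the input of the same genotype, so whether an exon is listed there depends on its input signal too, and the part of this was not tested.

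The digested peaks that did fall within these genes were few and intronic, and all but those on *Masp1* were in *Cfi*. In the intron between exons 6 and 7, RNase-only peaks lay at 129859415–129859547 in editing-deficient replicate 2, at 129859427–129859547 in editing-deficient replicate 3, at 129859423–129859547 in Mavs-/- replicate 1 and at 129859427–129859537 in Mavs-/- replicate 2. Their areas were 523, 575, 841 and 547. The bases held by at least 2 replicates were 121 in editing-deficient and 111 in Mavs-/- livers, beginning at the same position. The remaining replicate of each genotype had no peak there. The MDA5-protected libraries had none at that place, and input peaks did not cover it, the nearest exon being 604 bases away.

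In intron 1 of *Cfi*, MDA5-protected peaks lay at other positions. One of 296 bases was found in editing-deficient replicates 2 and 3 (129845494–129845789 and 129845502–129845797, areas 1104 and 1164). It had no counterpart in editing-deficient replicate 1, in any Mavs-/- library or in any RNase-only library, and it was left by the subtraction of RNase-only peaks that the study's methods describe, as a stretch of 304 bases. Another lay at 129842716–129842909 in editing-deficient replicate 3 (area 646) and at 129842700–129842890 in Mavs-/- replicate 1 (area 563), with 1 library in each genotype, which is not a recurrence within a genotype. Presence in 2 of 3 libraries against 0 of 3 was not tested between the genotypes. Intronic peaks of either kind were not rare among genes with input in all 6 libraries: 9.55% had an intronic RNase-only peak and 9.93% an intronic MDA5-protected peak. The sequences of these introns are not printed, since only spliced transcripts were used here.

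**Figure D5:**
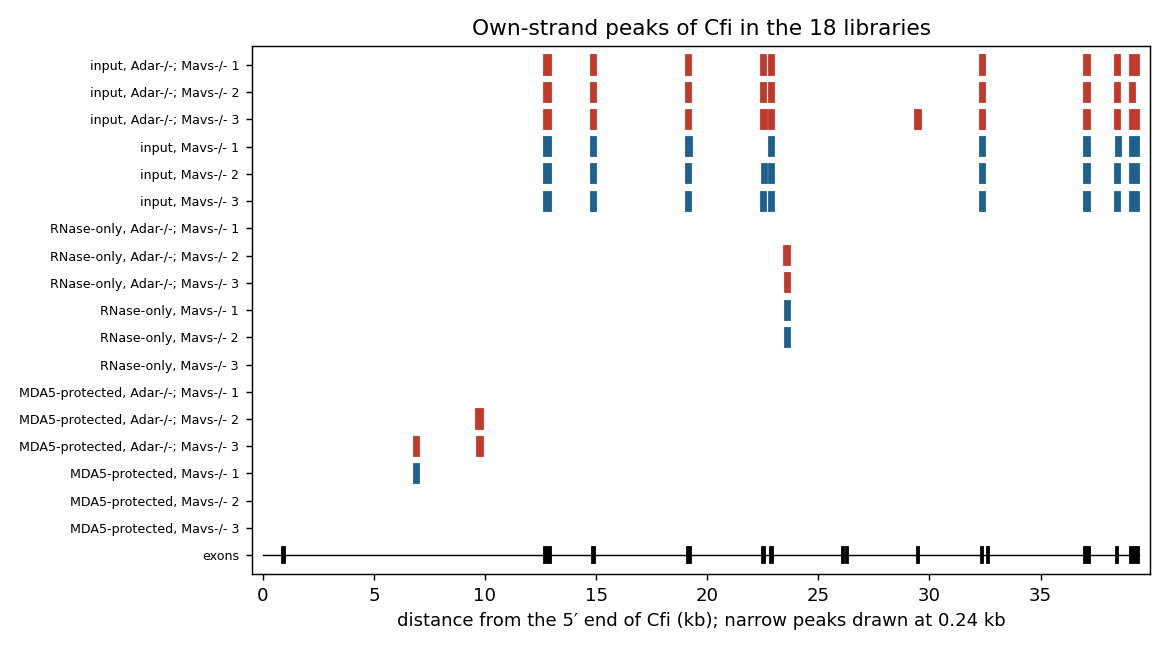
Own-strand peaks of *Cfi* in each of the 18 libraries (rows, coloured by genotype), drawn by distance from the 5′ end of the gene in kb, with its exons in black in the lowest row; narrow peaks are widened to remain visible. Input peaks sit on exons, while the 4 RNase-only and 4 MDA5-protected peaks sit in introns at separate places.

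*Masp1* had an intronic RNase-only peak on its own strand in 1 library, editing-deficient replicate 2 (23455555–23455753, area 507), in the intron after exon 13 of the 16-exon transcript. It was absent from the other 11 digested libraries.

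Beside the 9 genes, 36 further complement genes were followed: recognition proteins, proteases, regulators and receptors. Of these, 24 had an exonic input peak in at least 1 library, 15 in all 6, and 12 in none. The most covered were *Vtn* (vitronectin, an inhibitor of the membrane pore) with a mean over the 6 libraries of 87.3%, *Cpn2* (a subunit of carboxypeptidase N) with 79.1%, *Mbl2* (a mannose-binding lectin) with 71.1%, *Serping1* (the C1 inhibitor) with 63.1%, and *C1qb* and *C1qa* (chains of C1q) with 62.7 and 58.0%. Of the 24 genes tested, 3 were higher in the editing-deficient livers without overlap and 1 lower, beside 16.5 and 3.01% of all genes tested, and nothing is read from these counts. The 4 genes were named after their values were seen, and their values are a description. *C2*, the protease partner of C4, had 4.78, 19.3 and 20.4% of its exonic bases in peaks in editing-deficient livers and no peak in Mavs-/- livers. *Serping1* had 70.7, 71.2 and 71.2% against 63.7, 38.4 and 63.1%, and *C4a* is given above. *Mbl1*, another mannose-binding lectin, had 0, 18.8 and 0% against 47.8, 64.5 and 55.2%. *C8g* encodes the remaining chain of C8 and was also named after its values were seen. It had 50.8, 27.4 and 9.18% against 47.2, 60.0 and 61.0%, with overlapping groups (exact permutation p = 0.20).

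In digested libraries 1 of the 36 genes, *Cd55*, had an exonic peak, in 2 of 12 libraries. *Cd55* had no input peak, so the shares given above for genes with input peaks in all libraries do not apply to it. Nothing is read from this count. Among the genes whose digested values are reported here, *C6* had intronic own-strand peaks in 3 digested libraries and *Serping1* in 1. These genes too were named after their values were seen.

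The protein-coding genes most like the mean profile of the 9 members over the 18 libraries were *Aldh4a1*, *Hist1h3e* and *Spp2*, with mean absolute differences of 0.747, 0.886 and 0.911 percentage points in covered share. They had input coverage and no exonic coverage in the digested libraries. The mean profile was 49.3% in editing-deficient and 54.1% in Mavs-/- input.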

How the data were processed

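Single-end reads of 75 bp were trimmed by the authors (Trim Galore 0.6.6) and mapped with NextGenMap to GRCm38, and peaks were called strand by strand in each library with Genrich 0.6.1 (adjusted P-value at most 0.01, area under the curve at least 500, gap at most 20 bp). Digested libraries were called against the input of the same genotype and input libraries without a control, and blacklisted regions and rRNA were left out. The deposited score of a peak is this area, and the authors deposited its significance as −log10 values, unadjusted and adjusted. Summit positions were not used. The lists hold no counts, so no depth or counting interval is given. Samples were grouped by their labels, with none left out.

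Starts were converted to 1-based positions. For each GENCODE M21 gene and library, the percent of exonic bases (union of all exons) in own-strand peaks was computed with Python 3.11.15 and numpy 2.4.6. The 3 libraries of a genotype were compared by a two-sided exact permutation test of 3 against 3, which cannot give a p below 0.10, for every gene with an exonic peak in at least 1 of the 6 libraries, with Benjamini-Hochberg adjustment over all of them. A call is that the groups do not overlap. Exons are those of the longest coding transcript. Stretches had a minimum of 10 bp, and support between replicates after subtraction was within 200 bp. *C4a* and *C4b* exons were aligned with Biopython 1.88. The steps were tested on simulated data.

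The members and lists were chosen with earlier results of these data known. Named genes are the 9 members, *C4a*, same-strand genes sharing their exons, the 6 other complement genes with the largest mean input coverage and the 3 genes most alike by profile, and others are marked where they occur. Alternatives were an adjusted P-value of 0.001, an area of 1000, equal numbers of peaks, strands ignored, the longest coding transcript, each replicate left out, the replicate number as a block, 3 of 3 replicates, and other subtractions. The rank of area per exonic base was added after the data were seen. Same-numbered libraries of the genotypes did not deviate together in input (correlations of deviations across genes -0.01, -0.01 and -0.06). In editing-deficient livers the MDA5-protected and RNase-only libraries of 1 number did (0.27, 0.26 and 0.13). In Mavs-/- livers the correlations were 0.19, 0.06 and 0.28. The best match was the library of the same number in 3 of 3 cases in each genotype. No member had exonic coverage in these fractions. GC content and folding energy of resistant stretches were not analysed here, since all were intronic. Digested-library values of some other complement genes are not reported here.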

Additional observations from a re-analysis of the deposited data

Results flagged for a closer look

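RNase-only peaks on the strand opposite to *Masp1*, which enter no comparison of the report, were present in 2 of 3 editing-deficient libraries and in 0 of 3 Mavs-/- libraries. They lay at 23455587–23455768 in replicate 1 (area 1111) and at 23455623–23455753 in replicate 2 (area 501), 657 and 693 bases from the nearest exon. The latter lies within the own-strand peak of the same library (23455555–23455753). No input and no MDA5-protected library had a peak on the opposite strand of the gene. With 2 libraries the difference between genotypes was not tested, and groups of 3 are too small for a test of single libraries standing apart.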

How the results depend on the processing

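The number of genes whose input groups did not overlap was 3. It was also 3 with equal numbers of peaks or the longest coding transcript, and 4 with an area of at least 1000, the replicate block or the rank of area. With each replicate left out in turn it was 3 or 4, and it could not fall, since groups that do not overlap stay apart when a library is removed. With the stricter P-value or strands ignored it was 3, and neither setting could change it. The smallest −log10 adjusted P-value in the lists was 3.12, so the stricter limit removed no peak, and the members had no input peak on the opposite strand. The numbers in the labels do not pair the genotypes: no editing-deficient input library correlated best with the Mavs-/- library of its own number (0 of 3). With the replicate block, *C4b*, *C8a*, *Masp1* and *C8b* each differed in the same direction within all 3 numbers (exact sign-flip p = 0.25, the smallest that 3 pairs allow). For *C4b*, *C8a* and *Masp1*, whose groups did not overlap, any pairing of the libraries gives the same direction. Of these genes only *C8b* could have come out otherwise. With an area of at least 1000, *Hc* (11.2 points) and *Cfb* (4.87 points) no longer overlapped and *Masp1* did (-5.58 points), while *C4b* went from 13.8 to 27.3 points, *C8a* from -28.3 to -17.8 and *Cfi* from -0.66 to 8.84. *C8b* went from -15.8 to 0 because no input peak of it remained, so there was nothing left to compare. With the longest coding transcript *Masp1* went from -17.3 to -28.7 points. With equal numbers of peaks *Cfi* moved from -0.66 to -14.6 points and *Hc* from 3.86 to -3.22, both with overlapping groups. *C8b* no longer overlapped without Mavs-/- replicate 1 (-22.2 points) or editing-deficient replicate 2 (-18.9 points), and was at -8.60 points without Mavs-/- replicate 2, with overlap. *Hc* no longer overlapped without editing-deficient replicate 3 (6.09 points), nor *Cfb* without Mavs-/- replicate 3 (2.54 points). The causes were not tested.

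The 0 calls in the digested fractions, within and between genotypes, could not change under the alternatives run. No digested peak on either strand held an exonic base of the members, so there was nothing to compare. The *Cfi* stretches rest on 2 libraries each. The count of RNase-resistant stretches went from 1 to 0 in each genotype with 3 of 3 replicates, an area of at least 1000 or equal numbers of peaks, and ranged from 0 to 1 with a replicate left out. The count of MDA5-protected stretches in editing-deficient livers went from 1 to 0 with 3 of 3 replicates and ranged from 0 to 1 with a replicate left out, and remained 1 under the other alternatives; in Mavs-/- livers it was 0 throughout. Depth limits every absence above, since the lists hold no read counts and the paper's text gives only approximate ranges.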
